A study of Mus musculus with 8 samples.

Results

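Axon guidance ligands and receptors were examined in Neuro2a cells, an established mouse neuroblastoma line from AJ mice, in 2 growth phenotypes. They comprise Eph receptors and ephrins, semaphorins with plexins and neuropilins, Slits and Robos, and netrins with their receptors. Members were taken by gene symbol, and the families were chosen with earlier results of these data known. Each member is represented by its transcript cluster (the probe set of a gene on the array) with the highest mean over all arrays. Of 19938 genes with a cluster of their own, 70 are members, with 76 clusters between them. Ephb2 and Ntng2 have no cluster that carries only their symbol and were not analysed here. AD (anchorage dependent) cells had grown attached in DMEM with 10% fetal bovine serum, and AI (anchorage independent) cells had grown as tumorspheres in NeuroCult neural stem cell medium with EGF at 20 ng/ml, bFGF at 10 ng/ml and heparin at 2 µg/ml. Attachment, serum, medium and growth factors thus differ together between the phenotypes and cannot be told apart. Each phenotype had 4 arrays of one cell line, which the labels call biological replicates and the methods call replicate hybridizations, so p-values measure the spread between these arrays, which may be technical.

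The 4 systems steer growing axons and migrating cells. Ephrins sit on the membrane and signal by contact through Eph tyrosine kinases. Semaphorins act mostly through plexins, with neuropilins as co-receptors for the secreted class 3, Slits repel through Robo receptors, and netrins attract or repel through Dcc, Neo1 and the Unc5 receptors. Neuroblastoma arises from the sympathoadrenal lineage of the neural crest, where semaphorin and neuropilin signals position migrating crest cells and sympathetic neurons.

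Values are log2 signals, and differences are AD minus AI on that scale, so a positive one means higher in AD cells. A member is called higher or lower in AD cells when its adjusted p from limma over all 35556 transcript clusters is under 0.05 and the phenotypes differ at least 1.5-fold. Array medians were 5.82 to 5.92 log2 in AD cells, against 5.92 to 5.99 log2 in AI cells. A cluster is described as low when both phenotype means lie under 5.82 log2, the lowest array median, where a change would be hard to see and a level cannot be told from background. Signals of different clusters are not compared as levels, since probes differ in brightness. RNA came from whole cultures, so fewer cells that express a gene and less RNA per cell cannot be told apart. Of 10 sympathoadrenal markers, 8 were measured and none was low, with signals of 7.93 to 11.83 log2 in AD cells, against 6.37 to 11.93 log2 in AI cells. Of these 8, 3 were called higher in AD cells (Dbh by 3.01, Phox2a by 1.13 and Th by 0.60 log2) and none lower, and their part in the differences of the members was not tested. Markers of glia, fibroblasts, endothelium and leukocytes were low for 16 of 18 genes, and none of the 18 passed the adjusted p. AD replicate 4 correlated at 0.991 to 0.993 with the other AD arrays, which correlated at 0.995 to 0.996 among themselves, and members whose call rests on it are given with and without it.

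Of the 70 members, 6 were called, which is 8.57%, against 4.41% of all genes taken by the same rule and 3.93% of all transcript clusters. Plxna4 and Plxnd1 were higher in AD cells, and Slit1, Nrp2, Ntn3 and Plxnc1 were lower. Higher calls made up 2.02% of all genes and lower calls 2.4%, against 1.39% and 2.53% of all transcript clusters. At any fold, 20 members passed the adjusted p, 8 toward AD cells and 12 toward AI cells, a balance that turned to 10 and 9 with median centring. These are 28.6% of the members, against 21.7% of all genes (11% toward AD cells, 10.7% toward AI cells) and 18.1% of all transcript clusters (8.5% toward AD cells, 9.62% toward AI cells). AD and AI arrays did not overlap for 20 members or 28.6%, against 26.9% of all genes and 22.1% of all transcript clusters. These shares are not matched for signal, since 38 of the 70 members were low, against 8817 of the 19938 genes. Of the low ones, 2 members and 307 genes passed the adjusted p. The median difference of the members was 0.00 log2 and that of all genes 0.01 log2. By role, 2 of 35 ligands (5.71%) were called, both lower, and 4 of 34 receptors (11.8%), 2 in each direction. Ntng1 was counted in neither role. The balance of directions moved with median centring and without AD replicate 4, but not with quantile normalization. With each array centred on its median, 4 members were called higher in AD cells and 2 lower, and without AD replicate 4 the counts were 5 higher and 3 lower. Quantile normalization called the same 6 members, 2 higher and 4 lower. With it, 9 members passed the adjusted p at any fold toward AD cells and 12 toward AI cells.

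**Figure D1:**
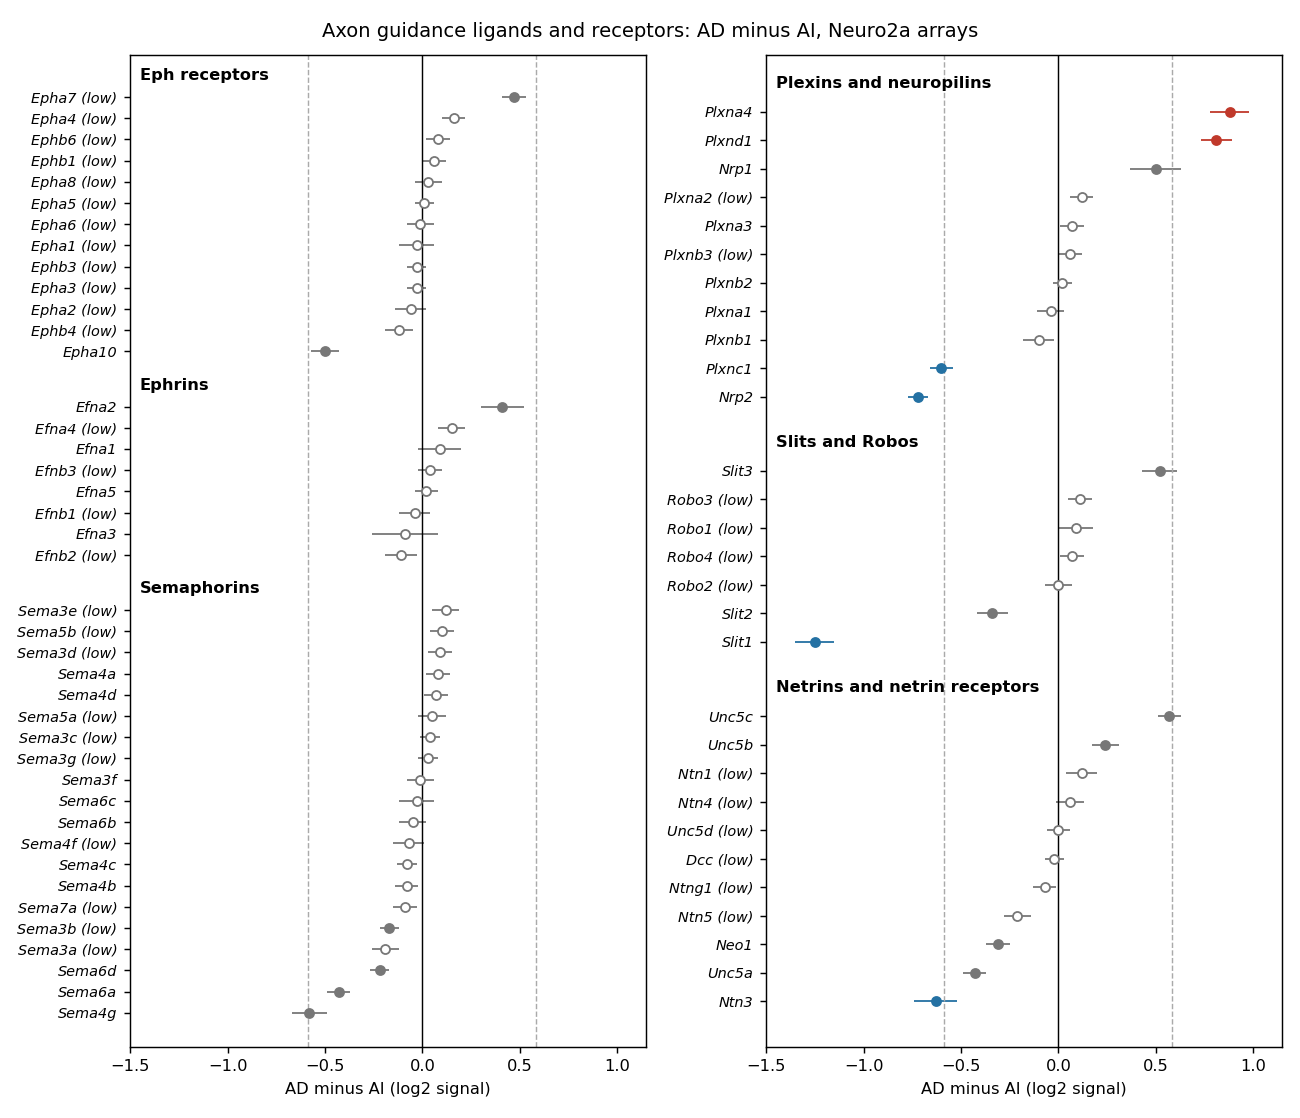
AD minus AI difference (log2 signal) of the 70 members by family, with standard errors. Red and blue points are called higher and lower in AD cells, filled grey points passed the adjusted p under 1.5-fold, open points did not pass, dashed lines mark 1.5-fold and "low" marks members with both means under the lowest array median. The called members run from Slit1 at -1.25 to Plxna4 at 0.88.

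Upstream sequence was taken from the RefSeq promoter table for build GRCm38.p6, which holds 60 of the 70 members and 4 of the 6 called ones. The E-box CACGTG, the core site of MYC family proteins and a palindrome that reads alike on both strands, was searched in the 250 bases before each start. It occurred in 4 of 76 member windows, or 5.26%, against 6.02% of all 32851 windows, and in none of the 4 called members with a window. The members that hold it are Epha8, Robo2, Sema4b and Sema6d. Epha8, Robo2 and Sema4b had differences of 0.03, 0.00 and -0.08 log2 and did not pass the adjusted p, and Sema6d did not pass under every alternative. The windows below are those of a called member higher in AD cells (Plxnd1), of called members lower in AD cells (Nrp2 and Plxnc1), and of Sema6d, whose window holds the E-box, in capitals, and which passed the adjusted p toward AI cells. They lie at chr6:115995006-115995255 on the minus strand for Plxnd1, chr1:62703067-62703316 on the plus strand for Nrp2, chr10:94944846-94945095 on the minus strand for Plxnc1 and chr2:124089719-124089968 on the plus strand for Sema6d.
Plxnd1: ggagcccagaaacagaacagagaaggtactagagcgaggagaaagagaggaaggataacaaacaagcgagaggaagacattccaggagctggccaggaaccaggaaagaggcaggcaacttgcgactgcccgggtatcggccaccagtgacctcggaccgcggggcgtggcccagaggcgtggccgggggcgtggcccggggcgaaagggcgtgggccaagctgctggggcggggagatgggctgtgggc
Nrp2: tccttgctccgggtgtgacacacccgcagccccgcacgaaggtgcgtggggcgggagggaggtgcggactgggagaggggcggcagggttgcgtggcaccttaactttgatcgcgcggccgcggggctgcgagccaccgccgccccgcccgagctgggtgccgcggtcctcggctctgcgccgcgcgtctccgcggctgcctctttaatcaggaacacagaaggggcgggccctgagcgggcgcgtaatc
Plxnc1: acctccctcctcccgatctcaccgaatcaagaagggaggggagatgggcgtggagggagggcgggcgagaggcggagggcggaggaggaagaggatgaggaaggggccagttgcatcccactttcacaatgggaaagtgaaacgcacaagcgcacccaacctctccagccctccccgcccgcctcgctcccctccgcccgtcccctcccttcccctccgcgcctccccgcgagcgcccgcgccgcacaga
Sema6d: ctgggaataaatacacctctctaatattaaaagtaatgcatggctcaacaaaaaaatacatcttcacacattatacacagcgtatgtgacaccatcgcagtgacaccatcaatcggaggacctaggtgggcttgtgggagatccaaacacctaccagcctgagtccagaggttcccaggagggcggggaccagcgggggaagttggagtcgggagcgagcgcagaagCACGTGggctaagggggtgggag
The share of G and C was 64.8% for Plxnd1, 72.4% for Nrp2, 68.8% for Plxnc1 and 52.4% for Sema6d, and the median over all windows was 52.4%. The 3 called members shown lie above that median whichever way they differ. So does the window of Ntn3 at 69.2%, a called member lower in AD cells whose window is not printed. Apart from Sema6d, no uncalled member has its share given here, so called and uncalled members are not compared. A motif match or its absence is a description of these letters only.

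Plexins and neuropilins held 4 of the 6 calls, which is 36.4% of the family, against 4.41% of all genes. The 2 shares are not matched for signal, since 2 of the 11 were low, against 8817 of the 19938 genes. Low members, 38 of the 70, held no call. Of 11 members, Plxna4 and Plxnd1 were higher in AD cells, Nrp2 and Plxnc1 were lower and 7 were not called. Plxna4 encodes plexin-A4, which joins neuropilin-1 in the receptor for Sema3A and also binds class 6 semaphorins directly. Its signal was 9.60, 9.63, 9.64 and 9.23 log2 in AD cells, against 8.70, 8.70, 8.62 and 8.55 log2 in AI cells. All AD arrays lay above all AI arrays, and AD replicate 4 lay below the other AD arrays. Plxna4 was 1.84-fold higher in AD cells (mean 9.53 ± 0.20 log2 in AD cells, against 8.64 ± 0.07 log2 in AI cells, ± SD over 4 arrays each), a difference of 0.88 log2 (standard error 0.10, adjusted p = 0.000354 from limma), and of 0.98 log2 without AD replicate 4.

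Plxnd1 encodes plexin-D1, the receptor that Sema3E can bind without a neuropilin. It had 8.38, 8.43, 8.38 and 8.10 log2 in AD cells, against 7.58, 7.53, 7.48 and 7.45 log2 in AI cells. Again the phenotypes did not overlap and AD replicate 4 was the lowest AD array. Plxnd1 was 1.75-fold higher in AD cells (8.32 ± 0.15 log2 in AD cells, against 7.51 ± 0.05 log2 in AI cells), a difference of 0.81 log2 (standard error 0.08, adjusted p = 0.000179 from limma).

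The neuropilins had differences of opposite sign, and of them Nrp2 was called. Nrp2, the neuropilin preferred by Sema3F, had 8.95, 9.08, 9.05 and 8.92 log2 in AD cells, against 9.70, 9.74, 9.71 and 9.73 log2 in AI cells. The AI arrays lay within a narrow band above every AD array. Nrp2 was 1.65-fold higher in AI cells (9.0 ± 0.08 log2 in AD cells, against 9.72 ± 0.02 log2 in AI cells), a difference of -0.72 log2 (standard error 0.05, adjusted p = 5.12e-05 from limma). Nrp1, the neuropilin preferred by Sema3A, had 10.00, 10.04, 9.93 and 9.51 log2 in AD cells, against 9.54, 9.17, 9.23 and 9.54 log2 in AI cells. Here the phenotypes overlapped, because AD replicate 4 lay under the 2 higher AI arrays. Its difference of 0.50 log2 (standard error 0.13, adjusted p = 0.0301 from limma) passed the adjusted p at 1.41-fold and was not called. Without AD replicate 4 it was 0.62 log2 and was called, whereas without AD replicate 1, 2 or 3 or AI replicate 2 or 3 it did not pass (0.43 to 0.48 log2, adjusted p = 0.0779 to 0.0856 from limma). It also did not pass with the replicate block (adjusted p = 0.0771 from limma) or with analysis of variance without moderation (adjusted p = 0.0933). Within each array, Nrp1 minus Nrp2 was 0.59 to 1.05 log2 in AD cells, against -0.57 to -0.16 log2 in AI cells, a shift of 1.22 log2 between the phenotypes. This pair and those below were chosen after their values were seen, so the shifts are given with no test.

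Plxnc1 encodes plexin-C1, the receptor of Sema7A. Its signal was 10.06, 10.00, 10.11 and 9.89 log2 in AD cells, against 10.60, 10.56, 10.61 and 10.67 log2 in AI cells, with no overlap. Its difference of -0.60 log2 (standard error 0.06, adjusted p = 0.00025 from limma) is 1.51-fold toward AI cells, just past the threshold. The call was lost without AD replicate 4 and with array weights (-0.55 log2 each), without AI replicate 4 (-0.58 log2) and with median centring (-0.52 log2), while the adjusted p stayed under 0.05 in each. Plxnd1 minus Plxnc1, taken within each array, ranged over -1.79 to -1.57 log2 in AD cells, against -3.22 to -3.02 log2 in AI cells. Among the other plexins, the differences were 0.12 for Plxna2, 0.07 for Plxna3, -0.04 for Plxna1, 0.06 for Plxnb3, 0.02 for Plxnb2 and -0.10 log2 for Plxnb1, the Sema4D receptor, and none passed the adjusted p. Plxna2 and Plxnb3 were low in both phenotypes. Plxnb2 had 9.92, 10.07, 9.97 and 9.91 log2 in AD cells, against 9.96, 9.95, 9.94 and 9.93 log2 in AI cells, a bright signal with arrays that interleaved.

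**Figure D2:**
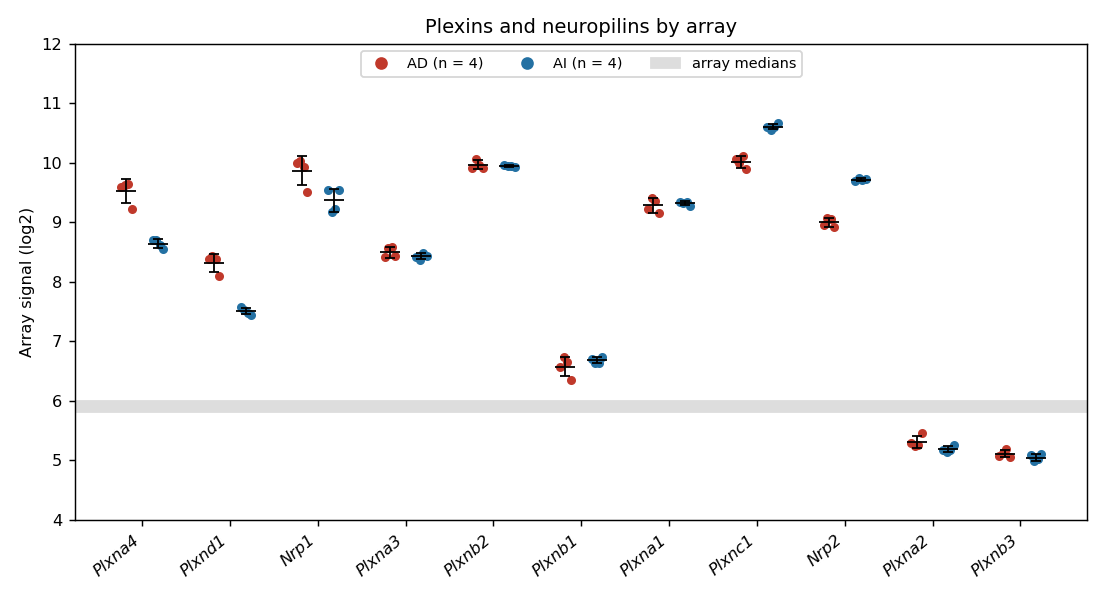
Array signal (log2) of the 11 plexins and neuropilins, with each dot an array, 4 AD (red, left) and 4 AI (blue, right) per gene, and black bars at the mean with SD. The grey band spans the array medians from 5.82 to 5.99 log2. Plxna4 and Plxnd1 sit higher in AD cells, Plxnc1 and Nrp2 higher in AI cells, and the AD arrays of Nrp1 reach down to 9.51 log2.

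Semaphorins, the ligands of these receptors, held no called member among 20, and 4 passed the adjusted p under 1.5-fold, all toward AI cells. The 4 are 20.0% of the family, against 21.7% of all genes in either direction and 10.7% toward AI cells. Sema4g, a transmembrane semaphorin, came closest, with 6.21, 6.19, 6.46 and 6.56 log2 in AD cells, against 6.94, 6.92, 6.88 and 7.01 log2 in AI cells. The arrays did not overlap, and the AD arrays were spread more widely than the AI arrays. Its difference of -0.58 log2 (standard error 0.09, adjusted p = 0.00218 from limma) fell just short of the fold threshold, which it passed with array weights, without AD replicate 3 or 4 and without AI replicate 2 or 3, at -0.65 to -0.59 log2. Sema6a, a transmembrane ligand of plexin-A4 and plexin-A2, had 8.62, 8.73, 8.85 and 8.67 log2 in AD cells, against 9.11, 9.11, 9.21 and 9.17 log2 in AI cells. Its groups did not overlap and it differed by -0.43 log2 (standard error 0.06, adjusted p = 0.00154 from limma). The relative Sema6d, a ligand of plexin-A1, whose E-box window is printed above, had 9.31, 9.36, 9.31 and 9.20 log2 in AD cells, against 9.50, 9.47, 9.51 and 9.57 log2 in AI cells, a difference of -0.22 log2 (adjusted p = 0.0215 from limma). Sema6b and Sema6c, of the same class, had -0.05 and -0.03 log2 and did not pass. With median centring, which moves the median of all clusters by 0.08 log2 toward AD cells, Sema4g had -0.51, Sema6a -0.36, Sema6d -0.14 and Sema3b -0.10 log2, and Sema6d and Sema3b no longer passed the adjusted p. Neither passed with the replicate block (adjusted p = 0.0808 for Sema6d and 0.0979 for Sema3b from limma). Sema6d also did not pass without AD replicate 3 or AI replicate 1, 3 or 4 (adjusted p = 0.0515 to 0.059 from limma). Sema3b also did not pass with quantile normalization, with trend and robust variance, or without any single array other than AD replicate 4 (adjusted p = 0.0665 to 0.107 from limma).

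Of the 7 secreted class 3 semaphorins, 6 were low in both phenotypes. Sema3f, the neuropilin-2 ligand, was the exception, with 7.03, 7.09, 7.07 and 7.22 log2 in AD cells, against 7.01, 7.27, 7.13 and 7.05 log2 in AI cells, and its difference of -0.01 log2 did not pass. Sema3a, the neuropilin-1 ligand, had a difference of -0.19 log2 and Sema3e, the plexin-D1 ligand, 0.12 log2, both low and neither past the adjusted p. Sema3b had -0.17 log2 (adjusted p = 0.0391 from limma) at 5.45 ± 0.04 log2 in AD cells, against 5.62 ± 0.03 log2 in AI cells, below the array medians on both sides. Sema7a, the plexin-C1 ligand, was low as well, with 5.17 ± 0.11 log2 in AD cells, against 5.27 ± 0.04 log2 in AI cells. For Sema3e and Sema7a a level cannot be told from background in either phenotype. Not every ligand of plexin-D1 and plexin-C1 is named here.

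Sema4d, the plexin-B1 ligand, is measured by 2 clusters that disagree. The one that stands for the gene had 9.71 ± 0.08 log2 in AD cells, against 9.64 ± 0.03 log2 in AI cells, a difference of 0.07 log2 (adjusted p = 0.439 from limma). The dimmer one had 5.99, 6.15, 6.16 and 6.23 log2 in AD cells, against 6.37, 6.62, 6.50 and 6.61 log2 in AI cells, a difference of -0.40 log2 (adjusted p = 0.00712 from limma). No direction is given for Sema4d for this reason. Sema4a, Sema4b and Sema4c lay above the array medians with differences of 0.08, -0.08 and -0.08 log2, none of which passed. The 16 semaphorins that did not pass ranged from -0.19 to 0.12 log2.

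Slit1 had the largest difference of the 70 members. Slits are secreted repellents of axons and of migrating neurons. Slit1 had 6.84, 7.01, 7.03 and 7.17 log2 in AD cells, against 8.19, 8.06, 8.46 and 8.35 log2 in AI cells. The highest AD array lay well below the lowest AI array. Slit1 was 2.38-fold higher in AI cells (7.01 ± 0.14 log2 in AD cells, against 8.27 ± 0.18 log2 in AI cells), a difference of -1.25 log2 (standard error 0.10, adjusted p = 6.56e-05 from limma). It was the member called at a 2-fold threshold, and it was called under every alternative setting at 1.5-fold, with -1.32 to -1.18 log2.

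The 3 Slit genes did not move together. Slit2, the best studied of them, had 9.85, 9.93, 9.86 and 9.66 log2 in AD cells, against 10.19, 10.10, 10.08 and 10.30 log2 in AI cells. Its difference of -0.34 log2 (standard error 0.08, adjusted p = 0.0131 from limma) had the direction of Slit1 but was 1.27-fold and not called. It did not pass the adjusted p with median centring (-0.27 log2, adjusted p = 0.0631 from limma) or with the replicate block (adjusted p = 0.0591 from limma). Slit3 went the other way, with 8.72, 8.79, 8.75 and 8.42 log2 in AD cells, against 8.13, 8.24, 8.09 and 8.12 log2 in AI cells. The arrays of Slit3 did not overlap, with AD replicate 4 nearest to the AI arrays. Its difference of 0.52 log2 (standard error 0.09, adjusted p = 0.00296 from limma) was 1.44-fold and not called, and it was called without AD replicate 4 at 0.61 log2 and with median centring at 0.60 log2. Within an array, the Slit3 signal minus the Slit1 signal ranged over 1.24 to 1.87 log2 in AD cells, against -0.37 to 0.18 log2 in AI cells.

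The Robo receptors were low throughout. Robo1, Robo2, Robo3 and Robo4 had 4.71 to 5.35 log2 in the 4 AD arrays, against 4.48 to 5.20 log2 in the 4 AI arrays, under the median of every array. Their differences of 0.00 to 0.11 log2 did not pass the adjusted p. Robo1 and Robo2 are the main Slit receptors of neurons, Robo3 has a role in commissural axons and Robo4 is known from endothelium. At this signal a Robo level cannot be told from background, and a difference between the phenotypes would be hard to see. All 3 Slit ligands lay above the array medians in both phenotypes.

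**Figure D3:**
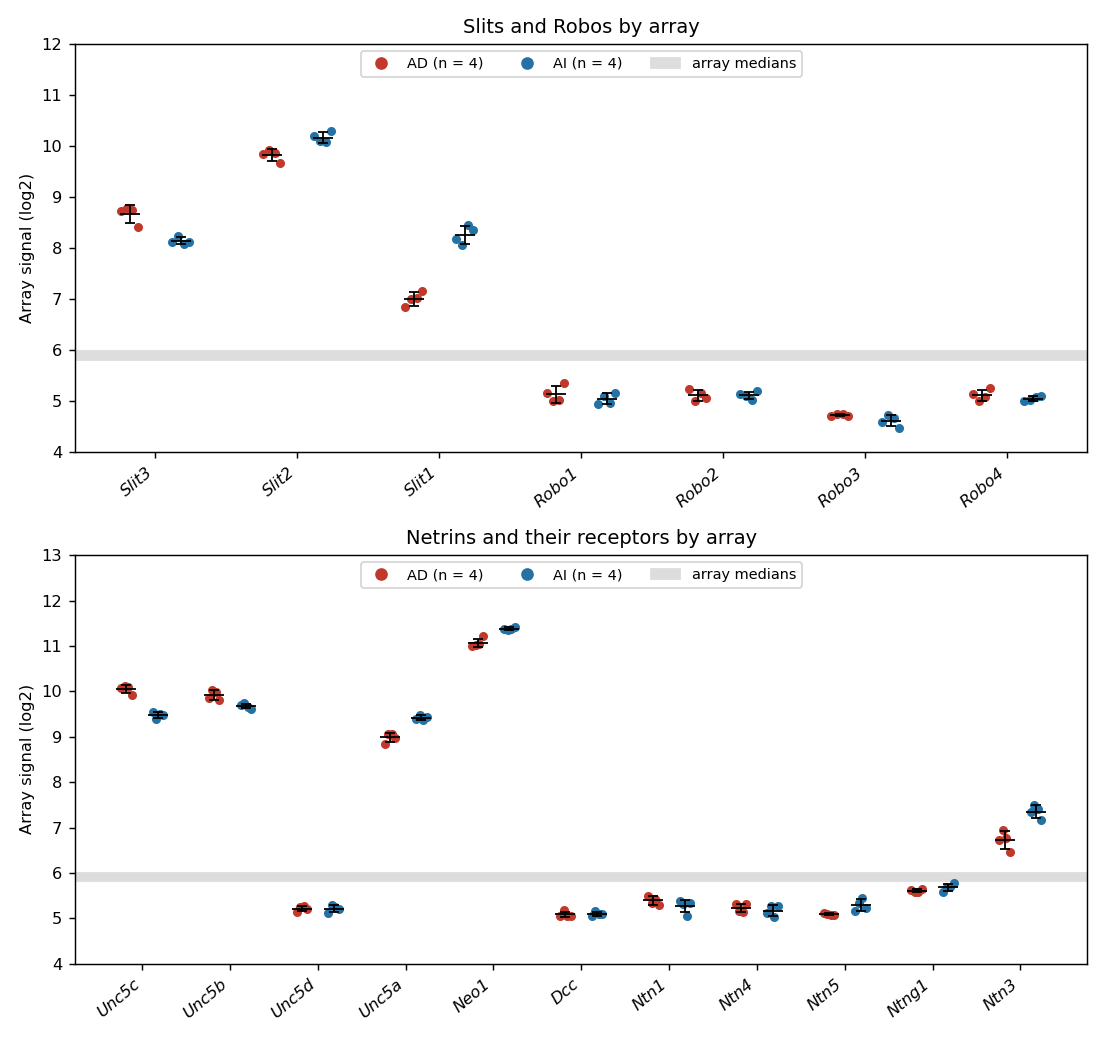
Array signal (log2) of the 7 Slits and Robos (top) and the 11 netrins and netrin receptors (bottom), with each dot an array, 4 AD (red, left) and 4 AI (blue, right) per gene, and black bars at the mean with SD. The grey band spans the array medians. Slit1 is higher in AI cells, the 4 Robos, Dcc and Unc5d lie below the band, and Unc5c and Unc5a differ in opposite directions.

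Among the netrin ligands, Ntn3 was lower in AD cells and the others were low. Ntn3 had 6.73, 6.94, 6.77 and 6.46 log2 in AD cells, against 7.34, 7.49, 7.41 and 7.17 log2 in AI cells. The groups did not overlap, and replicate 4 was the lowest array of each phenotype. Its difference of -0.63 log2 (standard error 0.11, adjusted p = 0.00371 from limma) was 1.55-fold toward AI cells. The call was lost without AD replicate 4 (-0.54 log2), without AI replicate 2 (-0.58 log2) and with median centring (-0.55 log2). Ntn1, Ntn4 and Ntn5 were low, with differences of 0.12, 0.06 and -0.21 log2 that did not pass, and so was Ntng1, a membrane-anchored netrin-G.

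Of the netrin receptors above the array medians, Neo1, Unc5a and Unc5c passed the adjusted p under every alternative, and Unc5b passed as deposited but not under all of them. None was called. Neo1, neogenin, a receptor of netrins and of repulsive guidance molecules, had 11.01, 11.02, 11.04 and 11.21 log2 in AD cells, against 11.38, 11.36, 11.37 and 11.42 log2 in AI cells. No AD array reached the AI arrays, and its difference was -0.31 log2 (standard error 0.06, adjusted p = 0.00661 from limma). Dcc, the netrin receptor of attraction, was low, with 5.08 ± 0.06 log2 in AD cells, against 5.10 ± 0.04 log2 in AI cells.

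The Unc5 receptors mediate repulsion and can trigger cell death when netrin is absent. Unc5c had 10.08, 10.11, 10.10 and 9.92 log2 in AD cells, against 9.54, 9.39, 9.51 and 9.47 log2 in AI cells. Its difference of 0.57 log2 (standard error 0.06, adjusted p = 0.000345 from limma) was 1.49-fold, just under the threshold, with no overlap. It was called with array weights (0.59 log2), with median centring (0.65 log2), without AD replicate 4 (0.62 log2) and without AI replicate 1 (0.59 log2). Unc5b had 9.85, 10.03, 9.99 and 9.81 log2 in AD cells, against 9.70, 9.74, 9.66 and 9.62 log2 in AI cells, and its difference of 0.24 log2 (adjusted p = 0.0324 from limma) had the same direction. Unc5b did not pass with the replicate block (adjusted p = 0.055 from limma) or without AD replicate 2 or 3 or AI replicate 1, 3 or 4 (adjusted p = 0.0664 to 0.0912 from limma). Unc5a had 8.85, 9.06, 9.06 and 8.97 log2 in AD cells, against 9.39, 9.48, 9.36 and 9.44 log2 in AI cells, and its difference of -0.43 log2 (standard error 0.06, adjusted p = 0.0017 from limma) ran toward AI cells. Unc5c minus Unc5a was 0.95 to 1.22 log2 in AD arrays and -0.09 to 0.15 log2 in AI arrays. Unc5d was low, with a difference of 0.00 log2.

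Eph receptors were low as a family, with 12 of 13 under the lowest array median in both phenotypes and none called. Epha10, a receptor without kinase activity, was the exception, with 5.67, 5.72, 5.57 and 5.74 log2 in AD cells, against 6.08, 6.09, 6.23 and 6.28 log2 in AI cells. It was under the array medians in AD cells and above them in AI cells. Its difference was -0.50 log2 (standard error 0.07, adjusted p = 0.00115 from limma), and the second Epha10 cluster gave -0.49 log2. Epha7 had 5.53, 5.59, 5.47 and 5.50 log2 in AD cells, against 5.06, 4.93, 5.09 and 5.13 log2 in AI cells. It differed by 0.47 log2 (standard error 0.06, adjusted p = 0.000771 from limma) with no overlap, although all 8 arrays were under their medians. The other 11 Eph receptors had differences of -0.12 to 0.16 log2, and none passed.

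Of the 8 ephrins, none was called. Ephrin-A genes encode ligands on a lipid anchor, and Efna2, Efna3 and Efna5 lay well above the array medians. Efna5 had 10.04, 10.14, 10.24 and 10.02 log2 in AD cells, against 10.11, 10.08, 10.05 and 10.13 log2 in AI cells, and its difference of 0.02 log2 (standard error 0.06) did not pass. The arrays of Efna5 interleaved. Efna2 had 7.45, 7.64, 7.64 and 7.14 log2 in AD cells, against 7.15, 7.15, 6.99 and 6.94 log2 in AI cells. AD replicate 4 lay within the AI arrays, and the difference of 0.41 log2 (standard error 0.11, adjusted p = 0.035 from limma) passed at 1.33-fold. It passed without AD replicate 4 (0.52 log2) but not without any other single array (0.35 to 0.44 log2, adjusted p = 0.0531 to 0.095 from limma), nor with analysis of variance without moderation (adjusted p = 0.0966). Efna3 had the widest spread of the family, with 7.57 ± 0.31 log2 in AD cells, against 7.66 ± 0.27 log2 in AI cells, and its difference of -0.09 log2 did not pass. The 3 ephrin-B genes, which encode transmembrane ligands, were low, with differences of -0.11 to 0.04 log2.

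**Figure D4:**
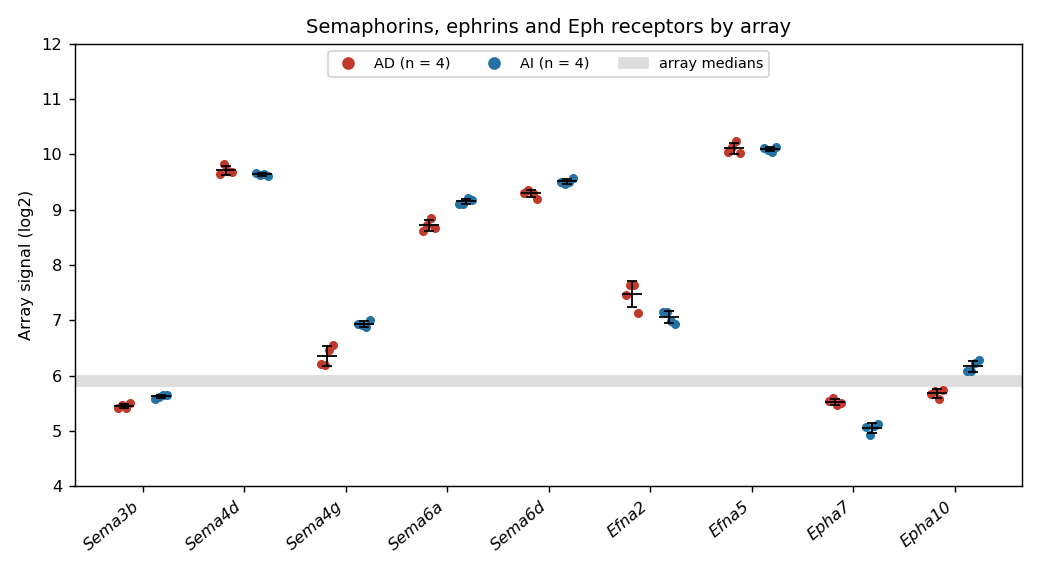
Array signal (log2) of the semaphorins, ephrins and Eph receptors that passed the adjusted p, with Sema4d and Efna5, which did not. Each dot is an array, 4 AD (red, left) and 4 AI (blue, right) per gene, black bars are means with SD and the grey band spans the array medians. The 4 passing semaphorins sit higher in AI cells, Efna2 overlaps, and Epha7 and Epha10 lie near or below the band.

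Partners and signalling genes of the same pathways, in a list of 94 of which 88 were measured, held 2 called genes, or 2.27% against 4.41% of all genes, and both were lower in AD cells. Dscaml1, a homophilic adhesion receptor of the Dscam family, had 7.37, 7.45, 7.48 and 7.39 log2 in AD cells, against 8.52, 8.67, 8.67 and 8.53 log2 in AI cells. It was 2.26-fold higher in AI cells with no overlap (difference -1.17 log2, standard error 0.06, adjusted p = 5.72e-06 from limma). Rgmb, a repulsive guidance molecule that binds Neo1 and acts as a BMP co-receptor, had 6.55, 6.55, 6.75 and 6.57 log2 in AD cells, against 7.46, 7.43, 7.55 and 7.34 log2 in AI cells. Its difference was -0.84 log2 (standard error 0.07, adjusted p = 7.4e-05 from limma), the same direction as its receptor Neo1. At any fold, 34 of the 88 passed the adjusted p (16 higher and 18 lower in AD cells), which is 38.6%, against 21.7% of all genes. The 2 shares are not matched for signal, since 16 of the 88 were low, against 8817 of the 19938 genes. Of those 8817 low genes 307 passed, and of the 16 low partners 2 passed.

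Among other ligands and co-receptors, 9 of 20 (45.0%, against 21.7% of all genes) passed the adjusted p, 2 of them toward AD cells and the other 7 toward AI cells. Flrt1 and Flrt3, adhesion proteins that bind Unc5 receptors, had differences of 0.50 and 0.57 log2 (adjusted p = 0.0004 and 0.00022 from limma), and Flrt2 was low with -0.02 log2. Flrt3 had 5.92 ± 0.07 log2 in AD cells, against 5.36 ± 0.05 log2 in AI cells, where it was under the array medians. Dscam, a netrin receptor and relative of Dscaml1, had -0.57 log2 and Nrcam, a co-receptor that pairs with neuropilin-2, had -0.50 log2, both past the adjusted p. Of 14 collapsin response mediators and growth cone proteins, 3 passed the adjusted p (21.4%), 1 of them toward AD cells, within -0.22 to 0.19 log2.

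Of 27 exchange factors, GTPase activators and adaptors, 9 had a higher signal in AD cells past the adjusted p, 4 a lower one, and none was called. Together these are 48.1%, against 21.7% of all genes (11% toward AD cells, 10.7% toward AI cells), with the same limit on signal as for the whole list. Rasa1, a Ras GTPase activator, had 0.46 log2, Gipc1, an adaptor that binds the tail of neuropilin-1, had 0.45 log2 and Srgap3, a Slit and Robo GTPase activator, had -0.44 log2. Of 14 kinases and proteases, 4 passed (28.6%), 1 of them toward AD cells. Among the 4 were Psen2, a presenilin, with -0.54 log2 and Fyn, a Src family kinase downstream of plexin-A and ephrin-A, with -0.34 log2.

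**Figure D5:**
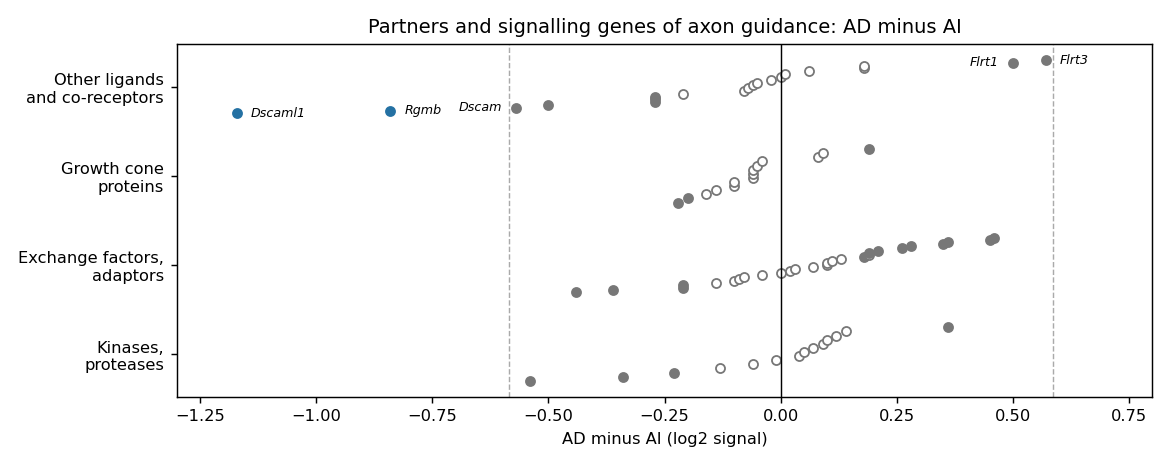
AD minus AI difference (log2 signal) of 75 of the 88 measured partners and signalling genes, in 4 groups. Blue points are called lower in AD cells, filled grey points passed the adjusted p under 1.5-fold, open points did not pass, and dashed lines mark 1.5-fold. Dscaml1 at -1.17 and Rgmb at -0.84 are the 2 called genes, and none of those plotted is called higher in AD cells.

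Where arrays of the phenotypes did not overlap, the exact two-sided permutation test of 4 against 4 arrays gave p = 0.0286, the smallest p this design allows, for each of the 18 members past the adjusted p that it covers. Nrp1 and Efna2 passed the adjusted p with arrays that overlap.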

How the data were processed

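Total RNA of AD and AI Neuro2a cells was hybridized by the authors to Affymetrix mouse gene arrays, 4 per phenotype. The deposited values are log2 signals that the authors had corrected for background and normalized between arrays. GCRMA and Partek 6.5 are listed in the submitters' processing notes, the study's methods list more than one normalization, and the genome build is not given in the sources used here. The values of 35556 transcript clusters were taken as deposited. The platform annotation gives 21789 of them a single symbol, and all 70 members matched the RefSeq table of GRCm38.p6 by gene number.

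Differences were fitted with limma (version 3.58.1, lmFit and eBayes without covariates, under R 4.3.3), and p-values were adjusted by Benjamini-Hochberg over all clusters. On simulated data with known changes among 35556 clusters, the model recovered 82% of clusters changed 1.75-fold and 94% of those changed 2-fold. The simulated noise was independent between arrays, with no outlying array and no change under 1.75-fold. These rates therefore do not cover members near the 1.5-fold threshold. Plots and the exact permutation tests used Python 3.11.15, pandas 2.3.3, scipy 1.17.1 and matplotlib 3.10.9. The members and lists were chosen with earlier results of these data known. Genes were named by rule: called members, the brightest member and the largest difference of each family, partners of called members, and called genes of the partner list. Other members and partner genes are named as examples chosen after their values were seen. Alternatives were quantile normalization, median centring, a filter on low signal, analysis of variance without moderation, trend and robust variance, array weights, a replicate block, other thresholds, the mean of a gene's clusters, and leaving out each array. The number of arrays limits the precision. Values of 1 group of the partner list are not reported here.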

Additional observations from a re-analysis of the deposited data

Results flagged for a closer look

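In 4 of the 48 groups of 4 arrays tested (24 genes, 2 phenotypes each), 1 array stood apart by Dixon's criterion, which chance flags in about 1 of 20 groups. For 3 of the 4 it was AD replicate 4. Plxna4 in AD replicate 4 was 9.23 log2, with the nearest other AD array at 9.60 log2, and Plxnd1 was 8.10 log2, with the nearest at 8.38 log2. Both lay on the side of the AI arrays, and both genes were called higher in AD cells with and without that array. Neo1 in AD replicate 4 was 11.21 log2, with the nearest other AD array at 11.04 log2, also toward the AI arrays. Rgmb in AD replicate 3 was 6.75 log2, with the nearest other AD array at 6.57 log2. The part of AD replicate 4 in the other differences was measured by leaving it out, and its cause was not tested.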

How the results depend on the processing

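Of 381 values of 24 single genes under alternatives, 360 kept their direction and their state as called or not called, 7 lost a call, 12 gained one and 2 changed sign. The 360 include values of uncalled members that lost the adjusted p, which occurred for Nrp1, Efna2, Unc5b, Slit2, Sema6d and Sema3b. The sign changes were in values that did not pass: Efna5 had -0.02 log2 without AD replicate 3 (-0.02 to 0.05 log2 over single omitted arrays), and Sema4d had -0.16 log2 as the mean of its clusters, which disagree. At a 1.2-fold threshold, 5234 clusters, 17 members (7 higher and 10 lower in AD cells) and 23 partner genes were called. At 2-fold the counts were 254 clusters, 1 member (0 higher, 1 lower) and 1 partner gene, and with no fold threshold 6444 clusters, 20 members (8 higher, 12 lower) and 34 partner genes. Median centring called 4 members higher and 2 lower in AD cells and 4 partner genes. Of the clusters it called, 47.0% were lower in AD cells, against 64.5% of those called as deposited and 59.8% of those called with quantile normalization. Array weights called 4 partner genes. Leaving out single arrays gave 1217 to 1636 clusters, 5 to 8 members, 2 to 5 higher, 3 to 5 lower, and 2 to 4 partner genes. Without AD replicate 4, Nrp1, Sema4g, Slit3 and Unc5c were gained and Ntn3 and Plxnc1 lost. The cause of these changes was not tested. Replicate numbers did not pair the arrays (correlations of same-numbered deviations -0.175 to 0.078), and a replicate block called 1352 clusters, the same 6 members and 2 partner genes, with 15 members past the adjusted p, without Nrp1, Unc5b, Slit2, Sema6d and Sema3b. Low signal limits the 38 members under the array medians in both phenotypes.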
